A study of Gallus gallus with 9 samples.

Results

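Mitochondrial ribosomal protein genes were followed in laser-captured tissue from the amacrine layer of chick retina after 24 h of lens wear. Members were the chicken probe sets whose single gene symbol in the platform annotation starts with MRPL or MRPS and a number, where a probe set is a group of short probes on the array meant to read 1 transcript. The rule gave 67 genes of the 13008 with a symbol of their own on the array, read by 96 of its 37693 chicken probe sets: 43 of the large subunit (MRPL) and 24 of the small subunit (MRPS). Of these, 71 probe sets for 60 genes (36 large, 24 small) entered the tests, for which a log2 intensity of 4 on 3 or more of the 9 arrays was required. None of the 71 passed that minimum through 1 group alone. Where a gene had several tested probe sets, its values are those of the brightest by mean over the arrays.

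The 3 groups had 3 Affymetrix Chicken Genome arrays each. Minus lens chicks wore a lens of -7 D over 1 eye, which the submitters describe as stimulating growth, plus lens chicks wore 7 D, described as suppressing it, and control chicks were untreated and of the same age. The source label of the minus lens samples contains both lens words, and the titles settled which group these arrays belong to. For all 9 samples the labels give light of 500 lux for 12 h, and they give no age, strain or sex. The labels describe 3 separate samples per condition but do not tie a sample to a bird, so the p-values rest on the spread among these samples alone, some of which can be technical.

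The mitochondrial ribosome makes the few proteins encoded in mitochondrial DNA, which are core subunits of the respiratory chain and ATP synthase. Its own proteins are encoded in the nucleus, made in the cytosol and imported. The large subunit forms peptide bonds and holds the exit for the new protein, and the small subunit reads the messenger RNA. Many of its proteins have counterparts in bacteria, and the others are particular to mitochondria. Inner retinal neurons are rich in mitochondria at their synapses.

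The tissue and the arrays were checked first. Of 12 amacrine markers 11 had a tested probe set, with GAD1 (GABA synthesis) at log2 14.26 ± 0.11 (SD, n = 3) and PAX6 at 13.13 ± 0.02 in controls. TH, the dopamine enzyme, had none. CHAT, of cholinergic amacrine cells, was below the minimum on control replicate 1 and minus lens replicate 1 and stood between 5.28 and 6.71 on the other 7 arrays. Of 9 photoreceptor markers and 5 blood markers 0 had a tested probe set, and 6 of 8 Müller glia, 5 of 8 ganglion cell and 2 of 6 pigment epithelium markers did. A marker without a tested probe set may be dim or may have none on the array under that symbol. These counts do not tell the 2 apart, so they do not show that a cell type was absent. Of 10 bipolar markers 6 had a tested probe set (GNG13, GRIK1, ISL1, OTX2, TRPM1 and VSX1). Their mean stood 0.53 to 0.78 above the control mean on the minus lens arrays, against -0.08 to 0.14 on the controls and 0.09 to 0.13 on the plus lens arrays. The mean of the 5 ganglion cell markers stood at -0.50 to -0.16 on the minus lens arrays, -0.55 to 0.19 on the plus lens arrays and -0.19 to 0.14 on the controls, with overlap between all groups. For the 11 amacrine markers the mean ran from -0.34 to 0.04 on the minus lens arrays, -0.04 to 0.13 on the plus lens arrays and -0.27 to 0.19 on the controls. For the 6 Müller glia markers it ran from -0.16 to 0.37, -0.38 to 0.06 and -0.15 to 0.17 in the same order. The amacrine lows, -0.34 on minus lens replicate 1 and -0.27 on control replicate 1, were on the arrays where CHAT was below the minimum. CHAT thus lowered both means, and a mean without it was not computed. The overlap of the minus lens and control ranges therefore does not show that the amacrine markers were alike. In bulk tissue, fewer cells of a type and less RNA per cell cannot be told apart. Minus lens replicate 3 correlated least with the other arrays (mean r = 0.953, against 0.971 to 0.975). Minus lens replicate 1 stood apart for genes on chromosome Z, described further on.

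No mitochondrial ribosomal protein gene passed the test in any comparison. In limma over 12975 probe sets, with Benjamini-Hochberg adjustment over all of them, 0 of the 71 member probe sets had an adjusted p under 0.05 for minus lens against control, plus lens against control or minus lens against plus lens. Over all probe sets 0.00771% passed for each lens against control and 0.0154% for minus against plus, so a count of 0 among 71 is near the background. At an unadjusted p under 0.05, 4 of 71 were higher under the minus lens than in controls, where the background is 2.93%, and 0 were lower, where it is 4.1%. Under the plus lens 0 were higher and 0 lower than in controls, with backgrounds of 0.863% and 1.09%. Between the lenses 2 were higher under the minus lens and 0 lower, with backgrounds of 3.02% and 4.05%. The F test over the 3 groups gave 0 members, against a background of 0.0154%, and 2 at an unadjusted p under 0.05, against 5.29%. The lowest adjusted p of a member was 0.683 for minus lens against control, 0.9998 for plus lens against control and 0.688 for minus against plus.

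The intervals show how far each gene may have differed by its brightest probe set, taken singly and without adjustment for the number of genes. The 95% confidence interval of the log2 difference lay within -1 and 1, which is a change of less than 2-fold either way, for 55 of 60 genes under the minus lens against control, 56 of 60 under the plus lens and 55 of 60 between the lenses. The median standard error was 0.19. The differences themselves ran from -0.54 (MRPS34) to 0.50 (MRPL13) for minus lens against control, from -0.33 (MRPS34) to 0.89 (MRPL51) for plus lens against control and from -0.64 (MRPL51) to 0.43 (MRPL13) between the lenses. MRPS34, MRPS6, MRPL43 and MRPL51 had wider intervals in all 3 comparisons, and MRPL15 in both that involve the minus lens. Dimmer probe sets, not counted here, could reach further. In minus lens against control that of MRPL3 had an interval of 0.0046 to 1.67 and that of MRPS6 -2.11 to 2.61. A p that misses the threshold does not show that the groups were alike. By the brightest probe sets the interval lay within -0.5 and 0.5 for 22 of 60 genes under the minus lens, 27 under the plus lens and 19 between the lenses. For the other genes differences past 0.5 were not excluded, and smaller differences could have been missed in any gene.

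Levels ranged widely from array to array for a few genes. The within-group SD had a median of 0.23 over the 60 genes, against 0.23 over all 7130 genes tested, and ran from 0.06 for MRPL38 to 0.67 for MRPL51. MRPL51, a large subunit protein of the mitochondrial kind, is read by a probe set of the type ending in s_at, whose probes may match more than 1 transcript. It stood at log2 5.67, 7.59 and 7.15 on the controls, 7.31, 7.34 and 6.51 under the minus lens and 7.29, 7.96 and 7.82 under the plus lens. The low value of control replicate 1 set the control mean. Without that array the plus lens difference of MRPL51 was 0.32, against 0.89 with it. MRPS34, a small subunit protein of the mitochondrial kind, was as uneven, with 6.27, 7.14 and 7.48 on the controls, 6.78, 6.76 and 5.74 under the minus lens and 6.62, 7.04 and 6.23 under the plus lens. MRPL38 and MRPS16 (SD 0.08) had the narrowest spread. For MRPS16 this holds for its brightest probe set alone, at a mean of log2 10.94 with a control SD of 0.09. Its other tested probe sets had means of 6.28, 6.09 and 4.21 and control SDs of 0.19, 0.23 and 0.36.

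**Figure D1:**
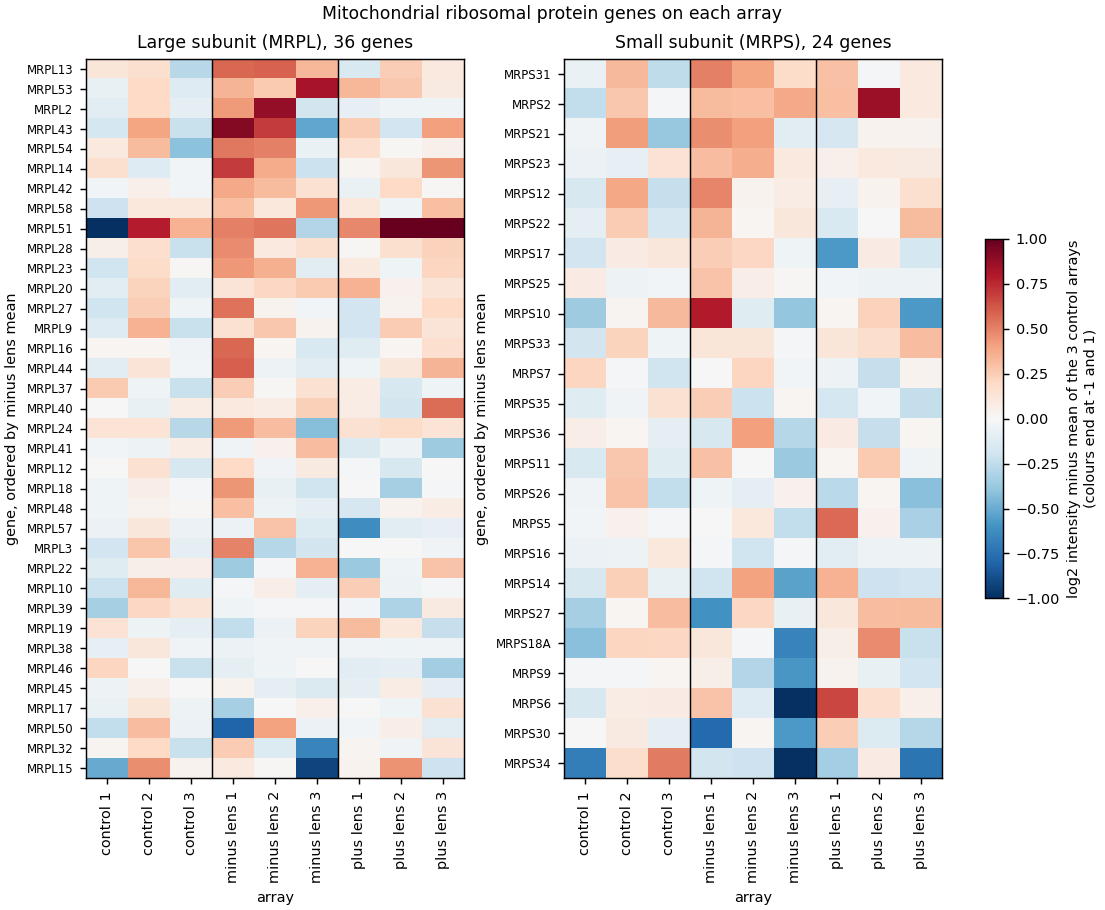
Log2 intensity of each of the 60 genes (rows) on each of the 9 arrays (columns), as the difference from the mean of the 3 control arrays; red is higher and blue lower, and the colours end at -1 and 1. Many rows are red on control replicate 2 (49 of 60 genes above the control mean) and on minus lens replicates 1 (42) and 2 (38), while MRPL51, MRPS34 and MRPS6 show single arrays far from the others.

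Large and small subunit genes were then set against each other, as differences from each gene's own control mean, because levels of different probe sets cannot be compared. On the minus lens arrays the mean of the 36 large subunit genes stood at 0.23, 0.15 and -0.03 and that of the 24 small subunit genes at 0.12, 0.08 and -0.22 (replicates 1, 2 and 3). On the controls the large subunit stood at -0.09, 0.16 and -0.07 and the small at -0.13, 0.13 and 0.00. On the plus lens arrays the large subunit stood at 0.01, 0.05 and 0.10 and the small at 0.04, 0.08 and -0.08. Neither subunit separated any 2 groups: control replicate 2 lay above the second minus lens array for both, and minus lens replicate 3 lay below every plus lens array. The mean of all tested probe sets was also lowest on minus lens replicate 3, at -0.13, and ran from -0.04 to 0.03 on the other 8 arrays.

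The gap between the subunits was small on every array. Large minus small gave 0.11, 0.07 and 0.20 for the minus lens replicates, 0.04, 0.03 and -0.07 for the controls and -0.03, -0.03 and 0.18 for the plus lens. The 3 minus lens arrays lay above the 3 controls in this gap, and plus lens replicate 3 lay among the minus lens arrays. No test is given, since the genes were chosen with earlier results known.

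**Figure D2:**
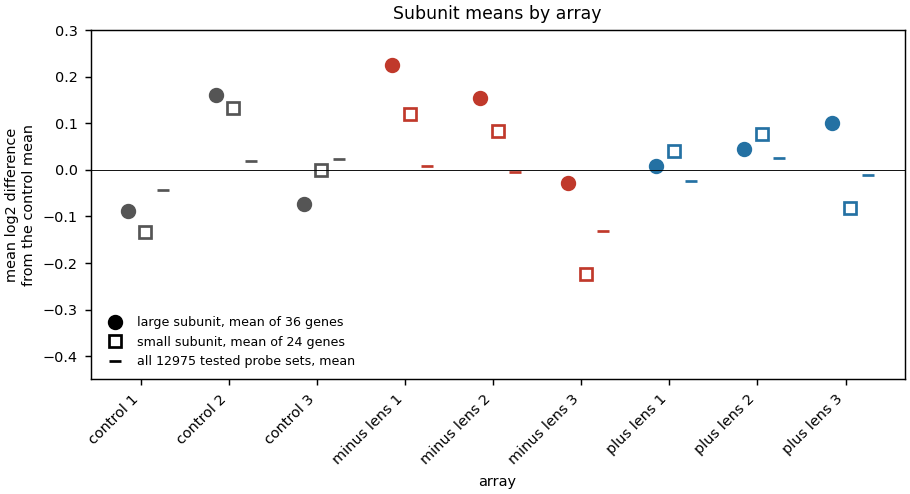
Mean log2 difference from the control mean on each array, for the 36 large subunit genes (filled circles), the 24 small subunit genes (open squares) and all tested probe sets (dashes), with controls in grey, minus lens in red and plus lens in blue. Control replicate 2 and minus lens replicates 1 and 2 are high for both subunits. Minus lens replicate 3 is lowest for the small subunit, while its large subunit mean lies above control replicates 1 and 3.

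Minus lens against control asks what growth-stimulating defocus and the wearing of a lens did together, since the controls were untreated. Of the 36 large subunit genes 25 had a higher mean under the minus lens, with a median log2 difference of 0.12. Of the 24 small subunit genes 12 had a higher mean, with a median of 0.0027. Over all tested probe sets 44.1% had a higher mean and the median was -0.03. By probe set, 4 of 71 members were higher without overlap of the arrays, where the background is 4.34%, and 0 of 71 were lower, where it is 5.67%. Without minus lens replicate 3 the counts were 28 of 36 and 18 of 24, with medians of 0.15 and 0.11, while 50.2% of all tested probe sets had a higher mean. Without minus lens replicate 1 they were 23 of 36 and 12 of 24, with medians of 0.08 and 0.0073. Leaving out 1 control array also moved the medians, the large subunit's to 0.053 without control replicate 3 and 0.15 without control replicate 2, and the small subunit's to -0.045 without control replicate 1 and 0.076 without control replicate 2. With MRPS18A and MRPS30 counted as large subunit and MRPS36 left out, as in human cells, the medians were 0.10 and 0.061. The part of the higher bipolar markers of the minus lens arrays in these values was not tested.

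The 4 members with no overlap were MRPL13, MRPL53, MRPL42 and MRPS2. MRPL13, a large subunit protein with a counterpart in bacteria, stood at log2 8.02, 8.06 and 7.63 on the controls and 8.48, 8.49 and 8.24 under the minus lens (log2 difference 0.50, SE 0.16, 95% interval 0.13 to 0.88, limma adjusted p = 0.683). All 3 minus lens arrays were above the highest control, and above the plus lens arrays too, which ran from 7.75 to 8.15. MRPL53, a large subunit protein of the mitochondrial kind, stood at 6.38, 6.66 and 6.33 on the controls and 6.80, 6.72 and 7.28 under the minus lens (0.47, SE 0.18, adjusted p = 0.683). Minus lens replicate 3 was the highest of the 9 arrays here, and without it the difference was 0.30. MRPL42, also of the mitochondrial kind, stood at 8.62, 8.69 and 8.62 on the controls and 9.02, 8.96 and 8.79 under the minus lens (0.28, SE 0.11, adjusted p = 0.683). MRPS2, a small subunit protein with a counterpart in bacteria, stood at 3.93, 4.44 and 4.16 on the controls and 4.50, 4.48 and 4.56 under the minus lens (0.33, SE 0.21, adjusted p = 0.754). It lay near the log2 minimum, where the authors' processing narrows differences.

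No gene was lower under the minus lens without overlap, and the 4 lowest by p were all labelled small subunit. MRPS30 had a log2 difference of -0.44 (SE 0.22, limma adjusted p = 0.725), with 7.54, 7.62 and 7.44 on the controls and 6.76, 7.55 and 6.96 under the minus lens. In the human mitochondrial ribosome MRPS30 sits in the large subunit despite its name. MRPS9, with a counterpart in bacteria, had 6.55, 6.55 and 6.58 on the controls and 6.62, 6.27 and 5.97 under the minus lens (-0.27, SE 0.17, adjusted p = 0.760). Minus lens replicate 1 of MRPS9 was above all controls and the other two below. MRPS34 had -0.54 (SE 0.39, adjusted p = 0.774) and MRPS6 -0.33 (SE 0.33, adjusted p = 0.829). Without minus lens replicate 3 the difference was -0.20 for MRPS34 and -0.12 for MRPS9, without control replicate 1 it was -0.88 for MRPS34, and without minus lens replicate 1 it was -0.44 for MRPS9. MRPS6, with a counterpart in bacteria and also read by an s_at probe set, stood at 9.04, 9.27 and 9.28 on the controls and 9.48, 9.07 and 8.05 under the minus lens. Its difference came to 0.076 without minus lens replicate 3, with the sign turned.

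**Figure D3:**
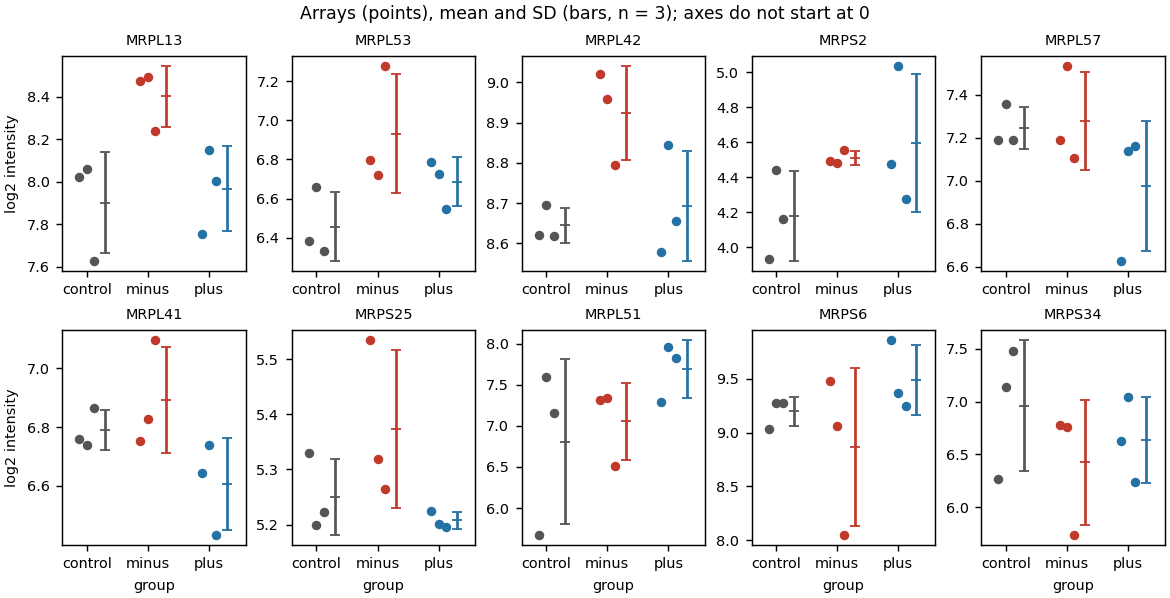
Log2 intensity of 10 genes in the control, minus lens and plus lens groups, with 1 point per array and the mean and SD (n = 3) as a bar beside them; axes do not start at 0. MRPL13, MRPL53, MRPL42 and MRPS2 have all minus lens points above all control points, while MRPL51, MRPS6 and MRPS34 have wide spreads, with MRPL51 low on control replicate 1 and MRPS6 low on minus lens replicate 3.

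Plus lens against control asks what growth-suppressing defocus and the wearing of a lens did together, with the same controls. Of the large subunit genes 22 of 36 had a higher mean under the plus lens (median 0.05) and of the small subunit genes 11 of 24 (median -0.02), against 49.4% and a median of -0.0021 over all tested probe sets. Single arrays turned these directions: leaving out 1 array gave large subunit medians from -0.010 (without control replicate 3) to 0.13 (without control replicate 2), and small subunit medians from -0.049 (without plus lens replicate 1) to 0.071 (without control replicate 2). By probe set, 0 of 71 members were higher without overlap and 2 of 71 were lower, where the backgrounds are 3.15% and 3.52%. The member means of the 3 plus lens arrays were 0.02, 0.06 and 0.03, inside the control range of -0.11 to 0.15. The mean of MITF and RPE65, the pigment epithelium markers above the minimum, stood at 0.10 to 0.72 on the plus lens arrays and -0.08 to 0.06 on the controls, and its part in these values was not tested.

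The 2 members lower without overlap were large subunit proteins of the mitochondrial kind. MRPL57 stood at log2 7.19, 7.36 and 7.19 on the controls and 6.63, 7.14 and 7.16 under the plus lens (-0.27, SE 0.19, limma adjusted p = 0.9998). MRPL41 stood at 6.76, 6.74 and 6.87 on the controls and 6.64, 6.74 and 6.43 under the plus lens (-0.18, SE 0.14, adjusted p = 0.9998). In both, 1 plus lens array lay well below the others and without it the difference was -0.095 for MRPL57 and -0.097 for MRPL41. The highest plus lens array lay just under the lowest control, which for MRPL41 was the same value to 2 decimals. MRPS26 (-0.22) and MRPL46 (-0.18) were next downward, and MRPS2 (0.42, SE 0.21), MRPL51 (0.89, SE 0.47), MRPS33 (0.20) and MRPL53 (0.23) upward, all with overlapping arrays and an adjusted p of 0.9998. MRPS2 stood at 4.48, 5.04 and 4.28 under the plus lens, and without the highest of these, plus lens replicate 2, its difference was 0.20. MRPS26 stood at 7.53, 7.84 and 7.31 on the controls and 7.28, 7.57 and 7.14 under the plus lens. In the gene table it carries GNRH2, a releasing hormone, as a synonym, and whether its probe set reads MRPS26 alone was not checked.

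Minus lens against plus lens asks whether the sign of defocus mattered. Of the large subunit genes 25 of 36 had a higher mean under the minus lens (median 0.09) and of the small subunit genes 12 of 24 (median 0.012), against 45.2% and a median of -0.03 over all tested probe sets. Without minus lens replicate 1 the medians were 0.011 and -0.043 (20 of 36 and 11 of 24), against -0.05 over all tested probe sets, and without minus lens replicate 3 they were 0.14 and 0.13 (26 of 36 and 15 of 24), against 0.0077. With the 3 genes placed as in human cells the medians were 0.08 and 0.11. By probe set, 4 of 71 members were higher without overlap, where the background is 4.53%, and 0 of 71 lower, where it is 5.15%. Among the genes these were MRPL13 (log2 difference 0.43, SE 0.16, limma adjusted p = 0.689), MRPL41 (0.29, SE 0.14, adjusted p = 0.726) and MRPS25 (0.17, SE 0.12, adjusted p = 0.784), a small subunit protein of the mitochondrial kind. MRPS25 stood at 5.53, 5.32 and 5.26 under the minus lens and 5.23, 5.20 and 5.20 under the plus lens, with a control array at 5.33. MRPL41 stood at 6.75, 6.83 and 7.10 under the minus lens, with the lowest just above the highest plus lens array. MRPL42 had 0.23 (SE 0.11, adjusted p = 0.726) with 1 plus lens array, at 8.85, inside the minus lens range. Lower by p, with overlapping arrays, were MRPS6 (-0.63, SE 0.33), MRPS27 (-0.40, SE 0.23), MRPS30 (-0.39, SE 0.22) and MRPL51 (-0.64, SE 0.47), with limma adjusted p of 0.736 to 0.786. Without minus lens replicate 1 MRPS27 stood at -0.18 and MRPS30 at -0.22, and without minus lens replicate 3 MRPS6 stood at -0.22 and MRPL51 at -0.36.

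**Figure D4:**
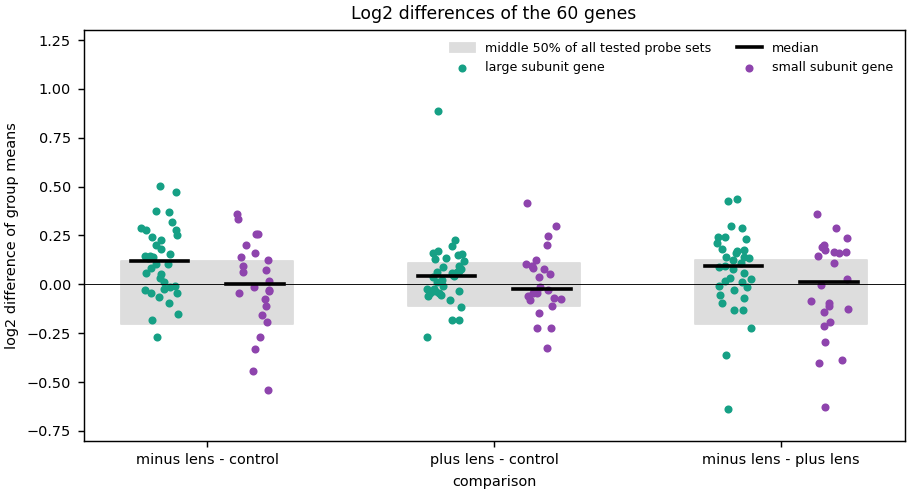
Log2 difference of group means for each large subunit gene (green) and small subunit gene (purple) in the 3 comparisons, with the median as a black line and the middle 50% of all tested probe sets in grey. Most genes lie between -0.5 and 0.5, the large subunit medians are 0.12, 0.05 and 0.09, and the small subunit medians 0.0027, -0.02 and 0.012.

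A split by kind of protein, chosen after the data were seen, gave the following values. Of the 19 large subunit genes with a counterpart in bacteria 13 had a higher mean under the minus lens than in controls (median 0.10), and of the 17 of the mitochondrial kind 12 did (median 0.13). For the small subunit the counts were 6 of 13 (median -0.03) and 6 of 11 (median 0.02). Under the plus lens the large subunit medians were 0.06 and -0.02 and the small subunit medians -0.02 and -0.04. Between the lenses the large subunit medians were 0.09 and 0.14, and the small subunit kinds parted, at -0.09 (5 of 13 higher) and 0.11 (7 of 11).

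A set of genes named whatever their values, for their roles, had the following differences from control. MRPL3, whose bacterial counterpart lies near the peptide-bond centre, had 0.01 under the minus lens and -0.01 under the plus lens (SE 0.22) by its brighter probe set, while its other tested probe set, described further on, gave larger ones. MRPL12, a stalk protein that binds translation factors, had 0.08 and -0.06 (SE 0.13), and MRPL10, which anchors the stalk, had -0.01 and 0.06 (SE 0.17). MRPL44, which resembles an RNA-cutting enzyme in fold, had 0.15 and 0.14 (SE 0.21), with 1 minus lens array at 7.63 above all others. In the small subunit, MRPS12, whose bacterial counterpart lies at the decoding centre, had 0.20 and 0.04 (SE 0.20), with a 95% interval of -0.25 to 0.65 for the minus lens. MRPS7 had 0.06 and -0.08 (SE 0.14), MRPS16 -0.07 and -0.07 (SE 0.09) and MRPS22 0.16 and 0.05 (SE 0.17). MRPS18A, placed in the large subunit in the human structure, had -0.19 and 0.10 (SE 0.28), and MRPS18B and MRPS18C were not analysed here. All of these had overlapping arrays in both comparisons with control and limma adjusted p there of 0.827 or above.

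There were 8 genes with more than 1 tested probe set, and these often differed. In minus lens against control the probe sets of a gene shared a sign for 3 of 8 genes, in plus lens against control for 5 of 8 and in minus against plus for 5 of 8. The widest split was in MRPL3. Its dimmer tested probe set stood at 6.75, 5.87 and 5.43 on the controls, 6.98, 6.88 and 6.71 under the minus lens and 5.66, 6.43 and 5.33 under the plus lens. There the minus lens difference was 0.84 against control (SE 0.36, limma adjusted p = 0.706) and 1.05 against plus lens (SE 0.36, adjusted p = 0.688, without overlap), where the brighter one gave 0.01 and 0.02. The 4 probe sets of MRPS16 ran from -0.30 to 0.24 in minus lens against control, the 2 of MRPS34 from -0.54 to 0.09 and the 2 of MRPS6 from -0.33 to 0.25. MRPL32 (-0.18 and 0.08) and MRPL9 (0.15 and -0.10) were also split in sign there. The dimmer probe set of MRPS34 stood at 2.89, 5.61 and 5.62 on the controls, and that of MRPS6 at 2.86, 5.75 and 5.81. Both were below the log2 minimum on control replicate 1. Their minus lens means, 4.80 and 5.06, lay below the other controls, so the split in sign of these genes rested on that array. MRPL17 was split in the plus lens comparison, from -0.17 to 0.10, and MRPL37 agreed in sign in all 3 comparisons.

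By RefSeq's gene table for assembly GRCg7b, chromosome Z held 5 of the 60 genes, and minus lens replicate 1 was low for that chromosome as a whole. The Z is a sex chromosome of which female birds carry a single copy. The median of the 471 tested probe sets on Z was -0.48 relative to the control mean on that array, and -0.06 to 0.02 on the other 8. The 9423 tested probe sets placed on other chromosomes had a median of 0.02 on it. Of the Z probe sets 55.2% had their lowest value of the 9 arrays there, against 6.79% of those elsewhere.

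Of the 5 Z genes, 4 were low on that array too. MRPL50 (large subunit, mitochondrial kind) stood at 6.78 on minus lens replicate 1 and at 7.34 to 7.99 on the other arrays. MRPS27 (small subunit, mitochondrial kind) stood at 7.15 there and 7.43 or above elsewhere, MRPS30 at 6.76 against 6.96 or above, and MRPL17 at 6.73 against 7.00 or above. MRPS36 stood at 7.74 on that array, below the controls at 7.81 to 7.97. It was lower still on plus lens replicate 2 (7.67) and minus lens replicate 3 (7.61). MRPS36 is counted in human cells as part of an enzyme complex of the citric acid cycle instead of the ribosome. Without minus lens replicate 1 the difference from control moved from -0.15 to 0.17 for MRPL50, from -0.16 to 0.07 for MRPS27, from -0.09 to 0.02 for MRPL17 and from -0.44 to -0.28 for MRPS30. Of the 55 genes not on Z, 37 had a higher mean under the minus lens than in controls (median 0.10), and 1 had its lowest value on minus lens replicate 1. The labels give no sex, and its part in these values was not tested.

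**Figure D5:**
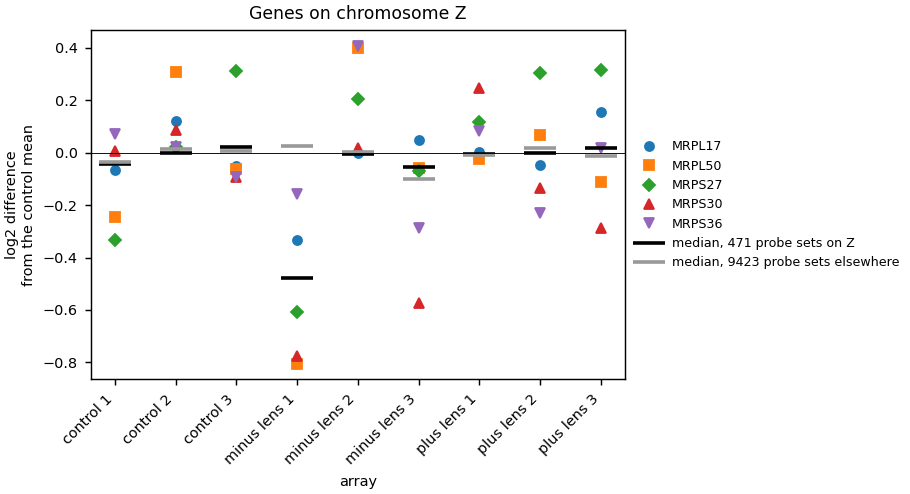
Log2 difference from the control mean on each array for the 5 genes on chromosome Z (symbols), with the median of all tested probe sets on Z (black dash) and on other chromosomes (grey dash). On minus lens replicate 1 the Z median is -0.48 and all 5 genes lie below 0, MRPS36 included, while the grey dash stays at 0.02.

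The genes moved together across arrays to a modest degree. The mean pairwise Pearson correlation over the 9 arrays was 0.16 among large subunit genes, 0.13 among small subunit genes and 0.13 between the subunits, against 0.04 among all 7130 genes tested. With group means removed these were 0.15, 0.18, 0.15 and 0.05. MRPL23 (r = 0.87), MRPS11 (0.85), MRPL43 (0.84) and MRPS21 (0.82) tracked the mean of the other members most closely, and MRPL19 (-0.57) and MRPL22 (-0.43) ran against it. These are descriptions over arrays that share 1 normalisation.

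Genes that work with the mitochondrial ribosome gave 0 calls as well. Counting genes measured, 0 of 4 ribosomal proteins under other symbols, 0 of 8 translation factors, 0 of 13 tRNA synthetases and related enzymes, 0 of 16 assembly factors and 0 of 9 genes of mitochondrial transcription and messenger upkeep passed in any of the 3 comparisons. Over all tested probe sets 0.00771% passed for each lens against control and 0.0154% for minus against plus. Counts of 0 in lists of these sizes are near that background. At an unadjusted p under 0.05, higher and lower together, there were 1, 1, 0, 3 and 0 in minus lens against control, where the backgrounds are 2.93% higher and 4.1% lower. In plus lens against control there were 0, 0, 1, 1 and 0, with backgrounds of 0.863% and 1.09%, and in minus against plus 0, 0, 1, 2 and 0, with backgrounds of 3.02% and 4.05%. Their median differences from control under the minus lens were 0.23, -0.01, -0.04, 0.05 and 0.10. The 4 ribosomal proteins under other symbols were PTCD3, CHCHD1, DAP3 and AURKAIP1. Under the minus lens 3 had a higher mean than in controls and 1 a lower (0.43, 0.44, 0.03 and -0.05). In human cells all 4 are counted in the small subunit. Being chosen by symbol, the subunit counts and medians above include none of them. The small subunit median of 0.0027 and its gap to the large subunit thus leave them out. PTCD3, a small subunit protein of the ribosome in human cells, stood at 7.73, 7.56 and 7.74 on the controls, 8.33, 7.88 and 8.12 under the minus lens and 7.76, 7.82 and 7.93 under the plus lens (minus lens difference 0.43, SE 0.14, limma adjusted p = 0.683). The minus lens and plus lens arrays all lay above the controls. MRM2, which methylates the large ribosomal RNA, had 0.48 (SE 0.17, adjusted p = 0.683) without overlap.

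Among other assembly factors, TFB1M, which methylates the small ribosomal RNA, stood at 5.84, 5.81 and 6.21 on the controls, 7.20, 5.91 and 8.56 under the minus lens and 7.49, 7.76 and 7.56 under the plus lens. The plus lens arrays lay together above every control (difference 1.65, SE 0.54, limma adjusted p = 0.9998) and the minus lens arrays were scattered. DHX30, a helicase needed for assembly, stood at 6.74, 7.17 and 6.90 on the controls and 6.68, 6.42 and 5.72 under the minus lens (-0.66, SE 0.24, adjusted p = 0.683), with the plus lens at 6.90, 7.08 and 6.91. GUF1, a translation factor, had -0.82 (SE 0.33, adjusted p = 0.683) under the minus lens, where replicate 3 stood at 3.85 against 4.99 or above on every other array.

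The 7 genes not tested, because their probe sets did not reach the minimum on 3 arrays, were all of the large subunit: MRPL1, MRPL21, MRPL30, MRPL33, MRPL34, MRPL47 and MRPL55, each with 1 probe set at log2 2.18 to 4.33. MRPL47 reached it on 1 array. All 24 small subunit genes had a tested probe set. A dim probe set may reflect its probes as well as its transcript, so no level is read from these.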

How the data were processed

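Total RNA was taken from laser-captured amacrine cell layer in sections 10 µm thick, and 10 to 100 ng was labelled in a two-cycle protocol, per the labels' protocols. The authors deposited an intensity for each probe set on each array, which the values show to be linear. GCRMA, of unstated version, is the method listed in the submitters' processing notes. GCRMA sets arrays to a common distribution, so differences are relative to other transcripts, and narrows dim values. Log2 was taken with no pseudocount. Of 38535 probe sets, 96 controls and 746 of non-chicken sequences were left out. Probe sets at log2 4 on at least 3 arrays (12975) entered limma 3.58.1 under R 4.3.3 (eBayes with intensity trend, all 9 arrays, 6 residual and 2.64 prior degrees of freedom, two-sided, Benjamini-Hochberg over all). The code was tested on simulated data. All 96 member probe sets matched the RefSeq table by Entrez number, with 0 symbols changed, and a probe set shared by MIF4GD and MRPS7 was left out. Named genes are up to 6 per direction and comparison with no overlap, filled to 4 by p, the 3 lowest by F test, 11 given whatever their values (9 of them measured) and up to 4 per gene list. Other members were named for their spread, their chromosome or their probe sets. Members and lists were chosen with earlier results of these data known. The number of arrays limits the precision. No 2 arrays were identical. Alternatives were filters, normalisation, a pseudocount, weights, a replicate block and leaving out each array, and, added after seeing the data, the genes on Z and the subunit of 3 genes.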

Additional observations from a re-analysis of the deposited data

Results flagged for a closer look

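Signal appeared in 2 member probe sets outside the tests, on 1 lens array each and above every control. The dimmest of the probe sets of MRPL3 stood at log2 5.24 on plus lens replicate 3 and at 2.66 to 3.19 on the other 8 arrays, while the probe set read for MRPL3 stood at 7.86 on that array. MRPL47 stood at log2 4.33 on minus lens replicate 1 and at 3.74 to 3.95 on the other 8. A control array showed the same: the dimmer probe set of MRPL53 stood at 4.35 on control replicate 1 and at 3.40 to 3.99 on the other 8.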

How the results depend on the processing

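The count of member probe sets passing the threshold stayed at 0 in limma under every alternative run, for the 3 comparisons and the F test, with a lowest adjusted p of 0.387 (minus against plus, without minus lens replicate 1). Counts over all probe sets, 1, 1 and 2 in the 3 comparisons and 2 in the F test, were 0, 0, 0 and 0 with the filter at log2 6 and 0, 0 and 0 with only the 6 arrays compared. Without a filter minus lens against control gave 0, minus against plus 1 and the F test 1. Median centring gave 0, 2 and 0 in the 3 comparisons, quantile normalisation gave 1 for minus against plus and the pseudocount of 16 gave 2 for plus lens. arrayWeights gave 2 and 3 for the lenses against control and 4 in the F test. Leaving out 1 array gave 0 to 4, 0 to 2, 0 to 2 and 0 to 2, the 4 without minus lens replicate 1. With the replicate block the counts were 1, 2, 0 and 0 and the members' lowest adjusted p for minus lens against control was 0.664. Of 9 same-numbered array pairs 2 had deviations correlated above 0.1 (highest 0.16), against 1 of 18 other pairs (highest 0.14). Correlations this weak cannot tell whether the numbers pair the samples. The large subunit median minus the small subunit median was 0.12 for minus lens against control. It was 0.012 there with arrayWeights, and 0.04 to 0.14 leaving out 1 array. For minus against plus it was 0.08, -0.024 with MRPS18A and MRPS30 counted as large subunit and MRPS36 left out, and -0.038 to 0.18 leaving out 1 array (lowest without plus lens replicate 1, highest without replicate 3). For plus lens against control it was 0.07, and -0.0051 to 0.12 leaving out 1 array. With those genes moved it was 0.04 for minus lens against control, and without Z genes 0.08. MRPS6 in minus lens against control, at -0.33, ran from -0.64 to 0.076 leaving out 1 array and turned sign without minus lens replicate 3. The cause of these moves was not tested.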
